A study of Mus musculus with 6 samples.

Results

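Dynlt1 and Tmem181 are neighbouring genes that mice carry in several near-identical copies on chromosome 17, and their transcripts were followed here in peritoneal macrophages (PMs) of lupus-prone and control mice. The 7 genes described are Dynlt1a, Dynlt1b, Dynlt1c, Dynlt1f, Tmem181a, Tmem181b-ps and Tmem181c-ps, out of 32879 genes with a record in the count files, and the question was whether a lower level of 1 copy was balanced by the others. The set was chosen by measured values: Tmem181c-ps and Dynlt1c ranked 4 and 12 by p among the 5162 genes with a lower fitted level in diseased-BWF1 mice, and the other 5 were taken in as their paralogs. Their own difference between the groups is therefore given as a description, with no test.

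PMs were sorted by flow cytometry as F4/80+ CD11b high cells from 3 diseased-BWF1 mice and 3 control mice, and their mRNA was sequenced. BWF1 mice are the first-generation female offspring of New Zealand black and New Zealand white parents, develop a disease resembling systemic lupus erythematosus, and were sampled once they had autoantibodies to double-stranded DNA and protein in the urine, at 31, 31 and 34 weeks of age. Control mice, which do not develop lupus, were New Zealand white/BALB/c F1 females with the same H2 haplotype, at 33, 33 and 30 weeks. Both groups thus share the New Zealand white genome and differ in the other parental genome as well as in disease. Total counts were 5003360, 4187106 and 3629901 in control mice 1 to 3 and 4307327, 4226538 and 4083357 in diseased-BWF1 mice 1 to 3. Control mouse 3 stood apart from the other controls, with a chi-square per gene of 24.86 and 22.88 against control mice 1 and 2, which differed from each other by 9.558, so the values the results turn on are also given without it.

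Dynlt1, also known as Tctex-1, is a light chain of cytoplasmic dynein, the motor that carries cargo along microtubules toward the cell centre, and it links the motor's intermediate chains to some of these cargoes. In macrophages dynein moves phagosomes, endosomes and lysosomes. Tmem181 encodes a membrane protein with several membrane-spanning segments, which the cytolethal distending toxin of Escherichia coli requires to act on human cells. Its copies b and c are annotated as pseudogenes (-ps), that is, copies thought to make no functional protein.

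The Dynlt1 copies are shown first by their coding sequence, because it tells what is lost when 1 copy is low. The coding sequence was 342 bases long in each of the 4 copies. Dynlt1a, Dynlt1c and Dynlt1f were identical over all 342 bases, and Dynlt1b differed from them by 1 substitution, C21A, counted from 1 at the A of the start codon, with the base of Dynlt1c first. That base is the third of its codon and left the encoded protein the same, so the 4 genes code for 1 protein. The first 60 coding bases, from the GENCODE release 21 transcripts of GRCm38, are shown with the differing base in capitals.
Dynlt1a: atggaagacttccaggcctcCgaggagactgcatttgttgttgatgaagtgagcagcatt
Dynlt1b: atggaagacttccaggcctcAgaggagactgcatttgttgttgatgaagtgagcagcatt
Dynlt1c: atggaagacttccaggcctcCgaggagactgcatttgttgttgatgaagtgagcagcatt
Dynlt1f: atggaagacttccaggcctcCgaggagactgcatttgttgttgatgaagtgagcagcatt

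Upstream sequence was at hand for 3 of the 7 genes, Tmem181a, Dynlt1c and Dynlt1f, in the RefSeq promoter table (GRCm38.p6). Dynlt1c and Dynlt1f are set side by side because Dynlt1c was lower in diseased-BWF1 mice and Dynlt1f was not. Over the 116 bases that lie upstream of both genes' RefSeq intervals and can be aligned, 113 were identical (97.4%) and 3 differed, A26C, C52T and C90G, counted from the first base shown, with the base of Dynlt1c first and the differing bases in capitals. The stretch of Dynlt1c is chr17:6601529-6601644 on the plus strand and that of Dynlt1f is chr17:6655966-6656081 on the minus strand. The Dynlt1f stretch adjoins the RefSeq start of its gene, while that of Dynlt1c stops short of its gene's start at 6601779. The stretches thus lie at unlike distances from the annotated starts, and the Dynlt1c bases in between were not compared.
Dynlt1c: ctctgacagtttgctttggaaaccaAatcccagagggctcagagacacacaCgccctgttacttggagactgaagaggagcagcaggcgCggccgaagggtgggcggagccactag
Dynlt1f: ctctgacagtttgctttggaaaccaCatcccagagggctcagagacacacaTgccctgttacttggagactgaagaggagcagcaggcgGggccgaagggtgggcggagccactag

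The Tmem181 copies were also close to each other. The annotated transcript of Tmem181c-ps aligned with that of Tmem181a over 1338 bases, at 99.33% identity, and with that of Tmem181b-ps over 677 bases, at 99.56%. It differed from Tmem181a by 9 substitutions and by gaps of 48 bases in all. A 60-base stretch in which all 3 align inside the coding part of Tmem181a, and in which Tmem181c-ps departs most from the others, is shown because such bases are what a read needs to be placed on the pseudogene. Tmem181a and Tmem181b-ps were identical there, and both differed from Tmem181c-ps at T5C and A56G, counted from the first base shown, with the base of Tmem181c-ps first and these bases in capitals.
Tmem181c-ps: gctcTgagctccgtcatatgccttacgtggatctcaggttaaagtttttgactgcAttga
Tmem181a: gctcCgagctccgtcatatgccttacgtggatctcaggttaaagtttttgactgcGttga
Tmem181b-ps: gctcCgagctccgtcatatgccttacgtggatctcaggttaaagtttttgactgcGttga

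On the map (RefSeq, GRCm38.p6) the 7 genes lie within 399 kb, chr17:6256726-6655965, as pairs of 1 Dynlt1 and 1 Tmem181 copy whose 3' ends face each other, with Dynlt1f as an extra copy. Tmem181a (chr17:6256726-6308314, plus strand) and Dynlt1a (chr17:6306344-6317520, minus strand) overlap by 1971 bases. Dynlt1b (chr17:6429530-6440500, plus strand) and Tmem181b-ps (chr17:6439002-6450994, minus strand) overlap by 1499 bases. Dynlt1c (chr17:6601779-6607891, plus strand) and Tmem181c-ps (chr17:6610103-6620925, minus strand) lie 2211 bases apart without overlap. Dynlt1f follows at chr17:6646606-6655965 on the minus strand. The library kit kept strand information, but whether the counting used it is not given in the sources used here, so reads from the overlapping ends of the a and b pairs may not have been told apart.

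Reads were 75 bases long, so each transcript was cut into all its 75-base windows, and a window was called shared when another copy's annotated transcript held the same letters. Shared windows made up 90.6% of the Dynlt1c transcript, 89.2% of Dynlt1f, 82.6% of Dynlt1b and 51.2% of Dynlt1a. The RefSeq record of Dynlt1c covers only 693 bases of that transcript, and within them 619 of 619 windows were shared, so no 1 read of this length placed inside the record belongs to Dynlt1c by its letters alone. Of these windows 444 were shared with Dynlt1a, 492 with Dynlt1b and 544 with Dynlt1f, and because the libraries were sequenced from both ends of each fragment, the mates of a pair can separate copies where 1 window cannot. How far they did so was not tested. Among the Tmem181 copies, 62% of the windows of Tmem181b-ps, 60.6% of Tmem181c-ps and 31.1% of Tmem181a were shared. No window was shared with a gene outside the 2 families or between them. Windows were compared in each transcript's own direction only, so overlapping ends on opposite strands could not count as shared. Reads of those ends could pass between the families if the strand was not used. The counts of single copies are therefore uncertain, above all for Dynlt1c. If shared reads were kept, the sum over a family does not depend on how they were divided among its copies. Whether they were kept is not given in the sources used here. The annotated transcript of Tmem181c-ps is not linked to the RefSeq record that was counted, so its window share describes the annotation rather than that record.

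**Figure D1:**
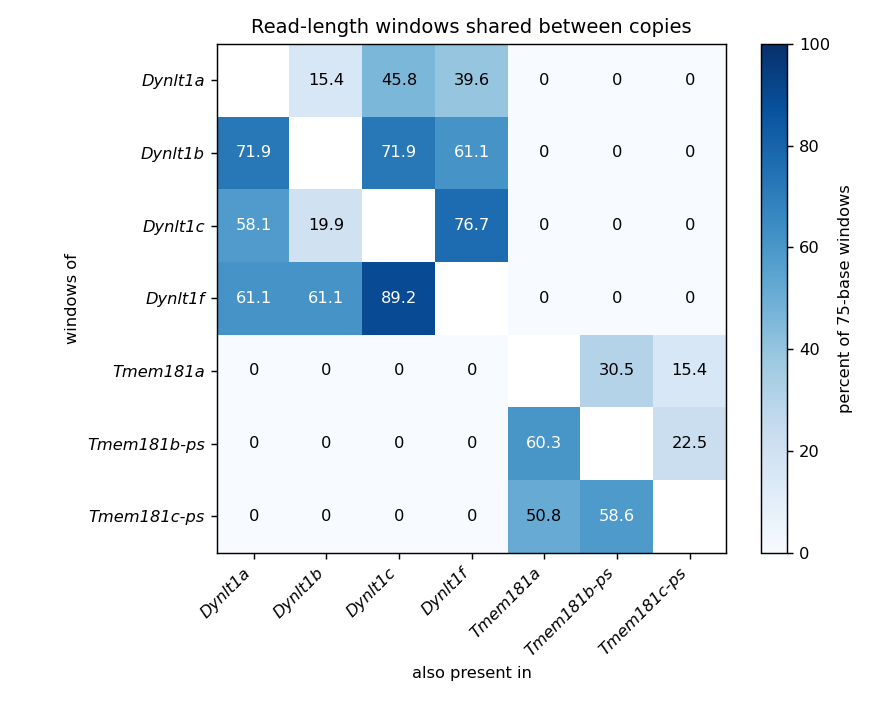
Percent of the 75-base windows of each copy's annotated transcript (rows) that are also present in an annotated transcript of another copy (columns), from 0 to 100%. Windows were compared in each transcript's own direction only, so overlaps on opposite strands could not count as shared. In that direction the Dynlt1 and Tmem181 blocks share windows within themselves and none with each other. Of the windows of Dynlt1f, 89.2% are found in Dynlt1c.

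Dynlt1c, with the light-chain sequence described above, was the lowest Dynlt1 copy in diseased-BWF1 mice relative to controls. Its normalized counts, which are counts divided by a DESeq2 size factor for each library, were 194.4, 190.3 and 218.2 in controls, against 75.5, 81 and 95.8 in diseased-BWF1 mice. The highest diseased-BWF1 mouse lay below the lowest control mouse, and the 3 mice of each group lay close together. The means were 201.0 ± 15 and 84.1 ± 10.5 (SD, n = 3 each), a log2 fold change of -1.26 ± 0.15 (SE) in the edgeR fit, which left 41.9% of the control mean. Without control mouse 3 it was -1.19.

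The other 3 Dynlt1 copies did not rise to fill this gap. Dynlt1f, which codes for the identical protein, had 53, 61.7 and 70 normalized counts in controls, against 54.8, 71.9 and 61.5 in diseased-BWF1 mice. The groups overlapped, and the log2 fold change was 0.03 ± 0.19, or -0.08 to 0.13 with any 1 mouse left out. Dynlt1a had 37.2, 41.1 and 49.4 normalized counts in controls, against 39.7, 32.4 and 43.4 in diseased-BWF1 mice, with a log2 fold change of -0.14 ± 0.22. These groups overlapped as well, and the value was -0.02 without control mouse 3, -0.03 without diseased-BWF1 mouse 2 and -0.24 without control mouse 1. Dynlt1b, the copy with the silent substitution, had 192.8, 191.3 and 182.6 normalized counts in controls, against 136.0, 92.2 and 171.5 in diseased-BWF1 mice. All 3 diseased-BWF1 mice lay below the controls but spread widely, with mouse 2 the lowest, and the log2 fold change of -0.51 ± 0.22 became -0.30 without that mouse and -0.72 without diseased-BWF1 mouse 3.

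**Figure D2:**
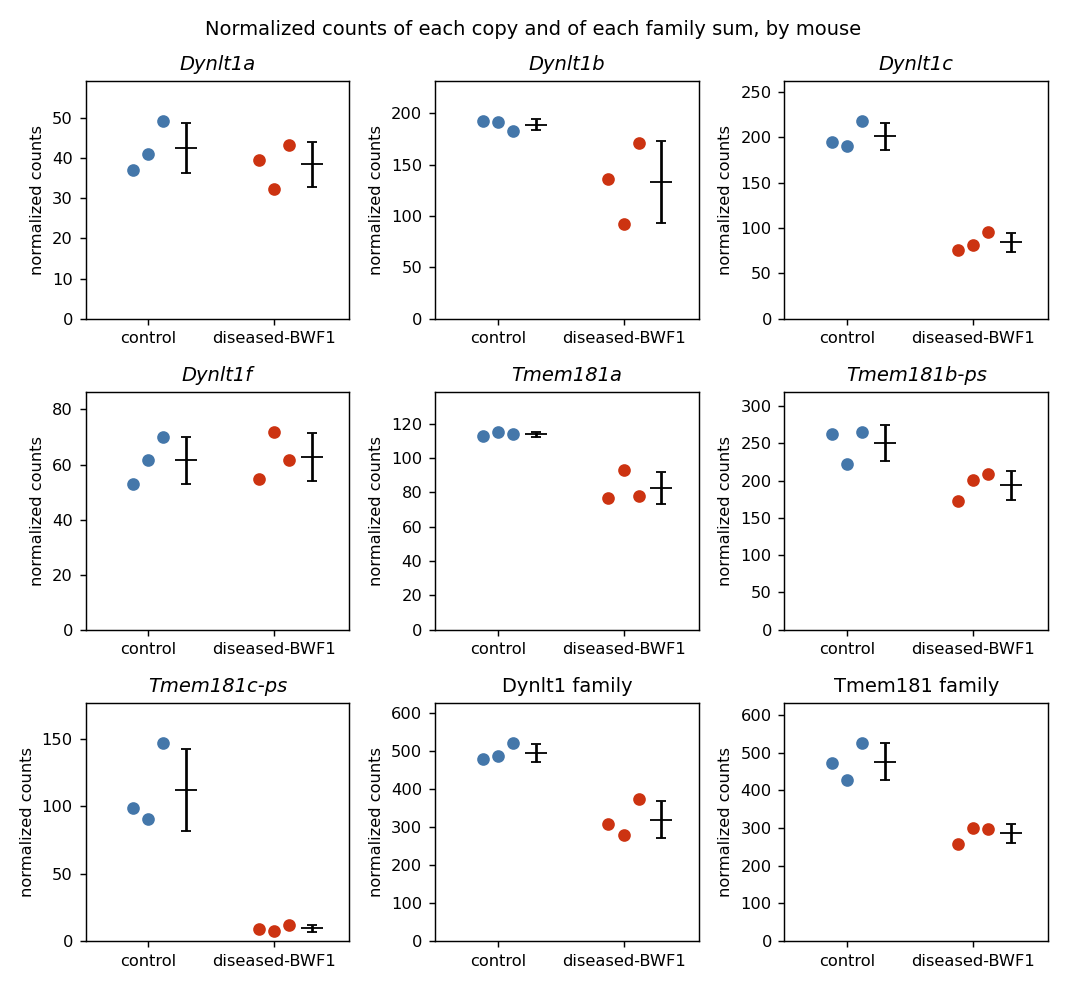
Normalized counts (y axis, starting at 0, a separate scale in each panel) of the 7 copies and the 2 family sums in 3 control mice (blue) and 3 diseased-BWF1 mice (red); the black mark and bar give the mean and SD. Dynlt1c and Tmem181c-ps fall from means of 201.0 and 112.0 to 84.1 and 9.23. Dynlt1a and Dynlt1f overlap between the groups, and no panel shows all 3 diseased-BWF1 mice above all 3 controls.

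Tmem181c-ps, the pseudogene next to Dynlt1c, showed the widest gap of the 7 genes. Its normalized counts were 98.5, 90.5 and 147.0 in controls, against 8.5, 7.09 and 12.1 in diseased-BWF1 mice. Each diseased-BWF1 mouse was far below each control, and control mouse 3 stood above the other controls. The means were 112.0 ± 30.6 and 9.23 ± 2.59 (SD, n = 3 each), and the log2 fold change was -3.59 ± 0.30, a 12-fold lower level, or -3.34 without control mouse 3. The counts behind the diseased-BWF1 values were 9, 7 and 12, against 119, 88 and 128 in controls, so the count was low but above 0 in every diseased-BWF1 mouse. Since 60.6% of its annotated windows are shared, these few counts may include reads of other copies, which was not tested.

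Tmem181a, the copy that codes for the membrane protein, had 112.5, 115.2 and 113.7 normalized counts in controls, against 76.5, 93.2 and 77.7 in diseased-BWF1 mice. The controls were nearly equal and all 3 diseased-BWF1 mice lay below them, with a log2 fold change of -0.47 ± 0.15. Tmem181b-ps had 262.3, 222.2 and 265.3 normalized counts in controls, against 171.9, 200.5 and 208.8 in diseased-BWF1 mice, with a log2 fold change of -0.37 ± 0.13. Here too the groups did not overlap, although control mouse 2 and diseased-BWF1 mouse 3 came close to each other.

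The family sums showed what was left after all copies were pooled. The Dynlt1 family had 477.4, 484.5 and 520.2 normalized counts in controls, against 305.9, 277.5 and 372.2 in diseased-BWF1 mice. Every diseased-BWF1 mouse lay below every control mouse, and the diseased-BWF1 mean was 64.5% of the control mean, with a log2 fold change of -0.64 ± 0.14, or -0.60 without control mouse 3. The Tmem181 family had 473.3, 427.9 and 525.9 normalized counts in controls, against 256.8, 300.8 and 298.5 in diseased-BWF1 mice. The groups were again apart, and the diseased-BWF1 mean was 60% of the control mean, with a log2 fold change of -0.74 ± 0.13, or -0.66 without control mouse 3. Dynlt1-ps1, a further Dynlt1 pseudogene on chromosome 6, had no record in the files, and any reads from it could have been counted on the other copies, since it shares 268 windows with the RefSeq span of Dynlt1c (43.3%).

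The lower level of Dynlt1c was thus not balanced within its family. The mean of Dynlt1c differed by -116.9 normalized counts, diseased-BWF1 minus control, and that of Dynlt1f by 1.16. Dynlt1c made up 66.6% of the family's difference, Dynlt1b 31.7% and Dynlt1a 2.34%. With Dynlt1c left out, the remaining Dynlt1 copies summed to 283.0, 294.2 and 302.0 normalized counts in controls, against 230.4, 196.5 and 276.3 in diseased-BWF1 mice, so what remained was also lower. Dynlt1a and Dynlt1f together were level, at 104.2 ± 14.7 and 101.2 ± 5.88.

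Nor did another Tmem181 copy make up for Tmem181c-ps. Tmem181c-ps accounted for 54% of the family's difference, Tmem181b-ps for 29.5% and Tmem181a for 16.5%. With Tmem181c-ps left out, Tmem181a and Tmem181b-ps summed to 374.8, 337.4 and 379.0 normalized counts in controls, against 248.3, 293.7 and 286.4 in diseased-BWF1 mice. The sums of the remaining copies did not overlap between the groups either.

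The composition of each family was also compared as the percent of the family's counts that each copy took, which needs no normalization between libraries. Counts were not divided by transcript length, so these shares compare mice and not the copies with each other. Dynlt1c took 40.7% (95% Wilson interval 36.8 to 44.8%), 39.3% (35 to 43.8%) and 41.9% (37.5 to 46.5%) of Dynlt1 counts in control mice 1 to 3. In diseased-BWF1 mice 1 to 3 it took 24.7% (20.3 to 29.7%), 29.2% (24.1 to 34.8%) and 25.7% (21.6 to 30.4%). The share of Dynlt1f went from 12.4 ± 1.22% to 20.1 ± 5.07% (SD, n = 3 each), a difference of 7.68 percentage points that was 4.78 without diseased-BWF1 mouse 2 and 5.06 with curated records alone, and that of Dynlt1a from 8.59 ± 0.851% to 12.1 ± 0.749%, while that of Dynlt1b was 38.3 ± 2.83% and 41.2 ± 7% with overlapping mice.

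Tmem181c-ps took 20.8% (17.7 to 24.3%), 21.2% (17.5 to 25.3%) and 27.9% (24 to 32.2%) of Tmem181 counts in control mice 1 to 3. In diseased-BWF1 mice 1 to 3 it took 3.31% (1.75 to 6.17%), 2.36% (1.15 to 4.78%) and 4.05% (2.33 to 6.95%). The share of Tmem181b-ps was 52.6 ± 2.56% in controls, against 67.8 ± 1.82% in diseased-BWF1 mice, and that of Tmem181a was 24.1 ± 2.67% and 28.9 ± 2.59%. These larger shares of Dynlt1a, Dynlt1f and Tmem181b-ps stood within smaller totals, since the normalized counts of Dynlt1a and Dynlt1f overlapped between the groups and those of Tmem181b-ps were lower in diseased-BWF1 mice. The intervals cover counting error alone and leave out error in how shared reads were divided among the copies.

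**Figure D3:**
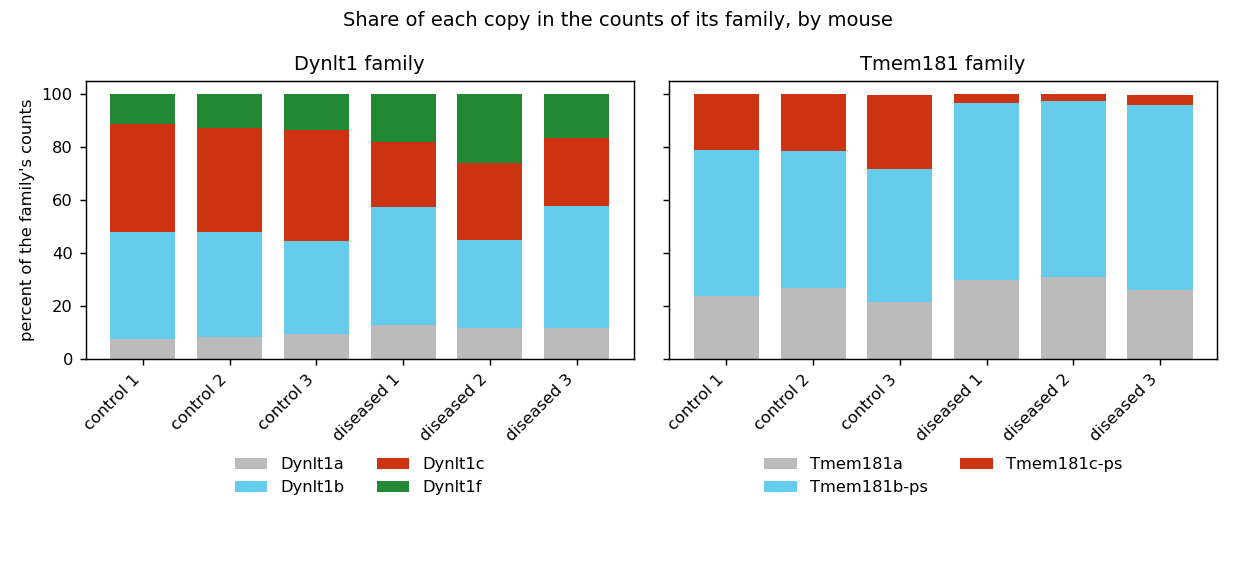
Percent of each family's counts (y axis, 0 to 100%) taken by each copy in every mouse, Dynlt1 on the left and Tmem181 on the right, with red for Dynlt1c and Tmem181c-ps. The red part shrinks from means of 40.6% to 26.5% in the Dynlt1 family and from 23.3% to 3.24% in the Tmem181 family.

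Most copies were counted on 1 transcript record, so their values cannot be split further. Dynlt1f had 3 records: a curated one with counts of 34, 25 and 10 in controls, against 23, 33 and 28 in diseased-BWF1 mice, a second curated one with 3 counts in control mouse 2 and 0 elsewhere, and a predicted one with 30, 32 and 51 counts in controls, against 35, 38 and 33 in diseased-BWF1 mice. The predicted record took 83.6% of Dynlt1f counts in control mouse 3 and between 46.9% and 60.3% in the other mice. Without predicted records the log2 fold change of Dynlt1f was 0.28 in place of 0.03. Tmem181a had 2 records, of which the predicted one had 0 counts in all 6 mice.

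All 7 genes passed the filter on low counts. At an adjusted p under 0.05 and at least 1.5-fold, edgeR called 128 of 10505 genes tested (1.22%), 86 of them lower in diseased-BWF1 mice (0.819%), and 2 of the 7 copies, Dynlt1c and Tmem181c-ps, were among the latter. DESeq2 called 370 of the 19833 genes with counts (1.87%), 242 of them lower (1.22%), with the same 2 copies among these. The 19833 were taken before DESeq2's own filter, so its share among the genes it tested can be higher. Normalized counts of all 3 diseased-BWF1 mice lay below those of all 3 control mice for 1180 of the 10505 genes (11.2%) and for 5 of the 7 copies. Since the copies were chosen by this contrast, nothing is read from these counts.

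Genes around the copies were chosen by position and could be tested. Of 57 other annotated genes within 1 Mb of the cluster, 25 had counts and 13 passed the filter. None of the 13 was called by edgeR or by DESeq2, 2 had an unadjusted edgeR p under 0.05, and the smallest adjusted p was 0.203. Across the data, edgeR called 1.22% of all genes tested and DESeq2 1.87% of all genes with counts. An unadjusted edgeR p under 0.05 was found for 1385 of the 10505 genes that edgeR tested. Calls would hardly be expected among 13 genes at these shares, so their absence is not read as a result about the neighbours. Their median log2 fold change was -0.27, with 6 above 0 and 7 below 0, and the median over all genes tested was 0.01. For the 10 tested genes within 0.5 Mb the median was -0.05, with 5 above 0 and 5 below 0. No gene between the copies passed the filter, and Gm2808, which lies between Tmem181b-ps and Dynlt1c, had 11 counts in the 6 mice together.

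On the side of Tmem181a the closest tested genes were Tulp4, Gtf2h5 and Serac1. Tulp4, 16.1 kb from the cluster and a relative of the tubby proteins, had 583.3, 442.4 and 397.3 normalized counts in controls, against 358.8, 226.9 and 280.4 in diseased-BWF1 mice. These mice did not overlap, but the difference did not pass the test across all genes (log2 fold change -0.72 ± 0.22, edgeR adjusted p = 0.203). Serac1, a protein of phospholipid remodelling, was at 93.9 ± 9.92 and 62.1 ± 9.81 normalized counts (log2 fold change -0.60 ± 0.18, edgeR adjusted p = 0.212). Gtf2h5, a subunit of the transcription and repair factor TFIIH, was at 53.9 ± 9.89 and 61.5 ± 11.3 (log2 fold change 0.18 ± 0.22, edgeR adjusted p = 0.781). On the side of Dynlt1f, Ezr, which encodes the membrane linker ezrin, lay 82.2 kb away, with 249.9, 230.4 and 257.2 normalized counts in controls, against 284.2, 264.3 and 437.7 in diseased-BWF1 mice. This difference did not pass the test either (log2 fold change 0.41 ± 0.20, edgeR adjusted p = 0.446). The next tested genes on that side, Rsph3b and Tagap1, had log2 fold changes of 0.88 ± 0.49 and -0.27 ± 0.23 (edgeR adjusted p = 0.503 and 0.667).

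**Figure D4:**
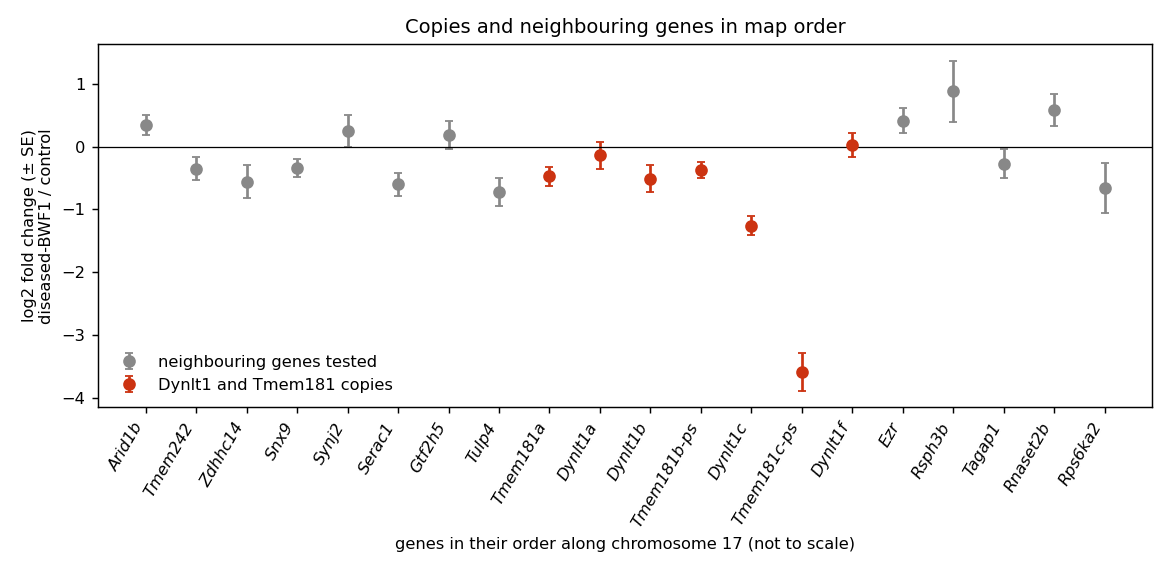
Log2 fold change of diseased-BWF1 against control mice with SE (y axis) for the 7 copies (red) and the 13 tested neighbouring genes (grey), in their order along chromosome 17 and not to scale (x axis). Dynlt1c at -1.26 and its neighbour Tmem181c-ps at -3.59 stand below the flanking genes, which range from -0.72 to 0.88. Dynlt1c and Tmem181c-ps were chosen for being low, while the flanking genes were chosen by position, so nothing is read from this contrast.

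The remaining dynein machinery was examined as 4 lists of other genes, 48 in all, of which 34 passed the filter. None was called by edgeR or by DESeq2, 3 had an unadjusted edgeR p under 0.05, and the smallest adjusted p was 0.336. Across the data, edgeR called 1.22% of all genes tested and DESeq2 1.87% of all genes with counts. Of the 10505 genes that edgeR tested, 1385 had an unadjusted edgeR p under 0.05. Few or no calls would be found among 34 genes at these shares, so nothing particular to the dynein genes is read from these counts. The median log2 fold change over the 34 genes was -0.05, with 16 above 0 and 18 below 0, against 0.01 over all genes tested. Single genes ranged from -0.76 to 1.08. Of the 10 dynein 2 and Tctex-type genes, 4 were tested, the others having few or no counts.

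Of the 10 genes for subunits that Dynlt1 joins in the cytoplasmic dynein 1 motor, 8 were tested. They had a median log2 fold change of 0.03 and values from -0.35 ± 0.18 (Dynlrb1) to 0.23 ± 0.19 (Dync1h1). None of the 8 was called. Since edgeR called 1.22% of all genes tested and DESeq2 1.87% of all genes with counts, nothing is read from this. Dync1h1, the heavy chain that holds the motor domain, was at 2091.7 ± 382.4 and 2460.3 ± 379.3 normalized counts in control and diseased-BWF1 mice (log2 fold change 0.23 ± 0.19, edgeR adjusted p = 0.659). Dync1i2, an intermediate chain of the kind that binds Dynlt1, was at 404.3 ± 40.5 and 372.5 ± 36.8 (log2 fold change -0.12 ± 0.13, edgeR adjusted p = 0.757). Dync1li2, a light intermediate chain, was at 311.2 ± 38.2 and 353.4 ± 35.2 (log2 fold change 0.18 ± 0.14, edgeR adjusted p = 0.644). Both tested Tctex-type relatives of Dynlt1 were named in addition, after their values were seen. Dynlt3, the other Tctex-type light chain of this motor, had a log2 fold change of 0.04 ± 0.12 (edgeR adjusted p = 0.917). Tctex1d2, a Tctex-type light chain of the dynein 2 list, had 4.96, 6.17 and 11.5 normalized counts in controls, against 17.9, 18.2 and 11.1 in diseased-BWF1 mice. Tctex1d2 thus had the highest log2 fold change of the 34 genes, 1.08 ± 0.45, with an unadjusted edgeR p of 0.0446 that did not pass across all genes (adjusted p = 0.363), and control mouse 3 and diseased-BWF1 mouse 3 overlapped.

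The 12 subunits of dynactin, the complex that activates dynein and ties it to cargo, had a median log2 fold change of -0.10. The genes with the highest levels there were the actin-capping subunits Capzb, Capza2 and Capza1, with log2 fold changes of -0.15 ± 0.12, 0.02 ± 0.15 and 0.12 ± 0.22. Among 10 tested regulators and adaptors the median was 0.08. Pafah1b1 (Lis1), a dynein regulator, had a log2 fold change of -0.06 ± 0.12, and the adaptors Hook3 and Trak2 had 0.35 ± 0.29 and 0.01 ± 0.15. The 4 tested genes of the dynein 2 list, which serves transport in cilia, had a median of -0.29, with Dync2h1, Wdr60 and Wdr34 at -0.48 ± 0.38, -0.10 ± 0.30 and -0.71 ± 0.41 and Tctex1d2 at 1.08 ± 0.45.

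**Figure D5:**
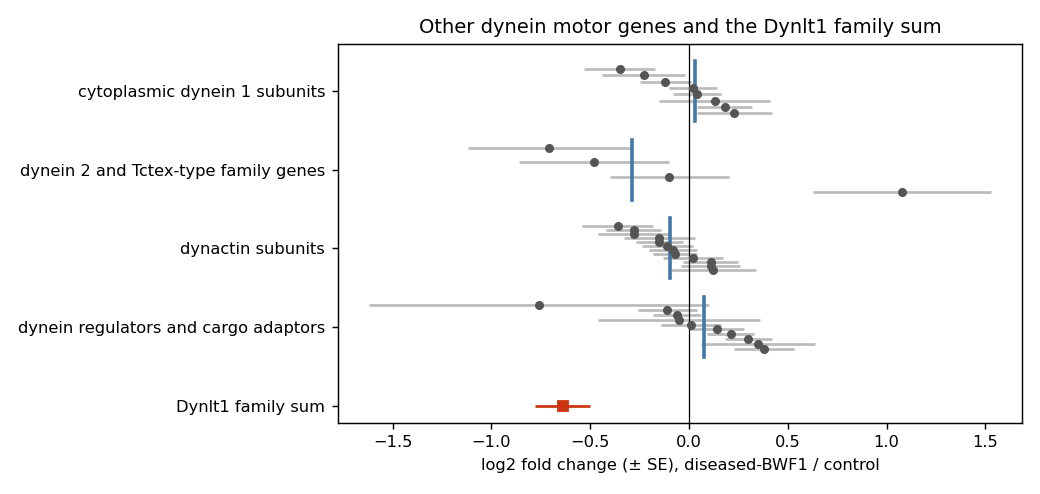
Log2 fold change of diseased-BWF1 against control mice with SE (x axis) for the 34 tested genes of the 4 dynein lists (grey points, with a blue line at each list's median) and for the Dynlt1 family sum (red square). The medians lie between -0.29 and 0.08 and single genes between -0.76 and 1.08; the Dynlt1 family sum, which holds a copy chosen for being low, lies at -0.64, within that range.

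The genes outside the families whose levels followed the copies most closely over the 6 mice were found by the root mean square difference of centred log2 CPM (counts scaled to the library total, with a prior count of 2). For Dynlt1c these included Uap1l1 and Mfsd6, with differences of 0.114 and 0.128. Uap1l1 had 163.8, 157.4 and 228.5 normalized counts in controls, against 71.8, 70.9 and 88.8 in diseased-BWF1 mice, a pattern close to that of Dynlt1c. For Tmem181c-ps they were Zscan25, Tspan8 and Mmp27, with differences of 0.259, 0.326 and 0.337. Zscan25 and Tspan8 had 0 counts in all 3 diseased-BWF1 mice and means of 19.2 and 23.1 normalized counts in controls, so their values in diseased-BWF1 mice were set by the prior count and their closeness to Tmem181c-ps is no measure of a like level there. Mmp27 had means of 64.6 and 6.6.

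The sorted cells carried the genes of PMs. All 9 macrophage markers were tested and none was called, where edgeR called 1.22% of all genes tested. Their summed level was 37600.4, 39756.7 and 49607.8 CPM in controls, against 38585.0, 35409.9 and 32414.7 in diseased-BWF1 mice. Diseased-BWF1 mice 2 and 3 lay below all controls in this sum, and mouse 1 did not. Lyz2 alone made up most of each sum, with 25429.3, 28228.7 and 39316.9 CPM in controls, against 26189.7, 23335.4 and 20421.7 in diseased-BWF1 mice. The 5 B cell markers reported, none of which passed the filter, were at a low level and summed to 5.43, 2.89 and 5.92 CPM in controls, against 3.08, 2.39 and 1.07 in diseased-BWF1 mice. Diseased-BWF1 mouse 1 lay just above control mouse 2, and the other diseased-BWF1 mice lay below all controls. The most abundant of them was Cd79a and none was at 0 in all 6 mice, and their part in the lower Dynlt1 and Tmem181 values was not tested. The summed markers of T or NK cells, neutrophils, mast cells, eosinophils, mesothelial cells, red cells and dendritic cells overlapped between the groups.

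With New Zealand black or BALB/c as the differing parental genome, strain and disease cannot be told apart in these mice, nor can fewer cells with a transcript and less of it per cell. Counts were given on RefSeq records, and differences of the parental strains from these records, in sequence or in number of copies, were not tested.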

How the data were processed

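PMs of 3 control and 3 diseased-BWF1 mice were profiled by stranded mRNA sequencing. The authors deposited estimated counts for 107193 RefSeq records per mouse, all whole numbers, so rounding changed none. The submitters' processing notes list Salmon 0.8.0, DESeq2 and GRCm38.p6 without their roles. Salmon divides reads that match several transcripts by estimation, which bears on near-identical copies. Records were matched to gene symbols by accession (45754 with the same version, 40712 with another) and summed, and 20727 unmatched records were left out. edgeR 4.0.16 (filterByExpr, TMM, quasi-likelihood test, Benjamini-Hochberg) in R 4.3.3 was used across all genes, called at adjusted p under 0.05 and at least 1.5-fold. Family sums were fitted with each family as 1 feature. DESeq2 1.42.0 gave size factors and an alternative test. Sequences were aligned with Biopython 1.88. Copies and lists were chosen with earlier results of these data known. Named genes were the copies, called list genes or otherwise the 3 highest per list, called neighbours and the 3 nearest tested per side, and the 3 most alike; 1 of the latter and 1 cell marker, left out of its list's sum, are not reported here. List genes renamed since were matched under 8 older symbols. The fits were tested on simulated data. Every library pair differed beyond sampling noise (chi-square per gene of 9.558 to 34.68). Totals were 3629901 to 5003360 counts, of which 3376669 to 4604336 were on genes, and 3 counts equal 0.6516 to 0.8884 CPM of the latter.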

Additional observations from a re-analysis of the deposited data

How the results depend on the processing

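The Dynlt1 family sum stayed lower in diseased-BWF1 mice under each of 8 other settings (log2 fold change -0.68 to -0.59) and without each mouse in turn (-0.76 to -0.54), and so did the Tmem181 family sum (-0.76 to -0.70 and -0.81 to -0.66). Summing the listed copies alone changes nothing by construction, since they are all the copies with a record. Dynlt1c ranged from -1.36 to -1.19 and Tmem181c-ps from -3.82 to -3.34 without each mouse. Dynlt1f had values on both sides of 0 (-0.08 to 0.13) and 0.28 with curated records alone. The share of Dynlt1c differed by -15.4 to -13.2 percentage points and that of Tmem181c-ps by -21.3 to -17.7. With at least 10 counts asked of every library Tmem181c-ps had no value.

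The number of genes called was 128 of 10505 tested in the main fit. It moved to 370 with DESeq2, which was given all 19833 genes with counts and then applied its own filter. With edgeR and no filter on low counts it was 259 (19833 genes tested). It was 84 with at least 10 counts in every library and 19 with curated records alone. Leaving out a mouse, which leaves fewer samples, gave between 21 (without control mouse 2) and 51 (without diseased-BWF1 mouse 2). The cause of the other changes was not tested. Library sizes alone gave 107, of which 57.9% were lower, against 67.2% with TMM. No dynein list gene or neighbour was called under DESeq2, the replicate block or any left-out mouse. At most 1.87% of the genes entered, before any filter of DESeq2, were called in these settings, so nothing is read from this. Same-numbered mice are different animals. Correlations of their deviations were 0.117, 0.006 and 0.157, against -0.144 to 0.057 for mice of different number. Whether same-numbered libraries were handled together is not given in the sources used here. With the replicate block 38 genes were called, the Dynlt1 family sum was -0.65 and the Tmem181 family sum -0.74. Tmem181c-ps rests on 7 to 12 counts per diseased-BWF1 mouse.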
